A study of Rattus norvegicus with 35 samples.

Results

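The cytoplasmic ribosomal protein genes were described in rat converted hypoblast stem cells, as 82 genes of 17198 in the table of read counts. A gene was a member when its RefSeq record matched a rat symbol that starts with Rpl or Rps and a digit, or Rplp0, Rplp1, Rplp2 or Rpsa. Of the members, 33 encode small subunit proteins and 49 encode large subunit proteins. The 7 genes of S6 kinases, whose symbols start with Rps6k, and 1 pseudogene were left out. Of the 77 standard rat symbols of this kind in the RefSeq gene table, 73 had a row. Rpl26, Rpl37, Rpl37a and Rps9 had none and were not analysed here. The other 9 members carry symbols of paralogs or related copies, such as Rps27l and Rpl22l1.

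The single cells and the bulk library share the same source: rat embryonic stem cells cultured with LIF, PDGF, EGF and fetal bovine serum, and collected on day 12 of differentiation. The libraries comprised 34 single cells, isolated in the chambers of a C1 microfluidic chip, and 1 bulk population control, all named here by their labels. No genotype, line, passage or culture is named for any library, so the cells are 1 sample and the bulk library is another. With 1 sample of each kind there is no test, and every SD below is a spread between cells.

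Total reads ranged from 6288 (C94) to 503044 (C54) in the cells, and the bulk library held 47121. The 22 cells with at least 50000 reads and at least 3000 genes with a read are called the passing cells, and the other 12 are given beside them. Among lineage markers, 6 of 7 core hypoblast genes and 7 of 7 parietal endoderm genes with a row were detected in at least 17 cells, against 1 of 7 visceral endoderm and 0 of 5 pluripotency genes. Levels are given as CPM, the count of a gene scaled by the total of its own library to counts per megaread, and detection in a cell means a level of at least 5 CPM. Reads of the fibroblast collagen gene Col1a2 were present in 4 cells (C14, C17, C30 and C46) and, as 40 reads, in the bulk library. Of these cells, C17 and C46 were passing cells.

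A ribosome is built from RNA and many different proteins. The small subunit reads the messenger RNA, the large subunit joins the amino acids, and a protein stalk on the large subunit recruits the elongation factors. Cells make the proteins in matched amounts, in part because their messenger RNAs belong to the terminal oligopyrimidine (TOP) class: they begin with a C followed by a run of pyrimidines, through which LARP1 and the growth kinase mTORC1 control their translation. Growing stem cells and early embryonic tissues use large numbers of ribosomes.

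The first transcribed bases carry the feature that defines the TOP class, so the annotated start is shown for the 8 members with the highest mean CPM among those reported here that had a promoter sequence. Each line gives 10 bases before and 20 bases from the annotated start on the gene's strand, from RefSeq promoter sequences of the GRCr8 build, with runs of at least 5 C or T in capitals.
Rplp0 (chr12:46718371-46718400, minus strand): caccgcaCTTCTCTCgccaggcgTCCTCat
Rps6 (chr5:106420521-106420550, minus strand): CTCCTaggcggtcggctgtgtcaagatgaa
Rpl3 (chr7:113507971-113508000, minus strand): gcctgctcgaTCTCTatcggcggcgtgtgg
Rpl19 (chr10:83519054-83519083, plus strand): ccagcaagCTCTTTCCTTTCgctgctgcgt
Rpl4 (chr8:73566467-73566496, plus strand): TCTTCCTTTTCCTgtgggagcagccgggta
Rpl41 (chr7:1563478-1563507, minus strand): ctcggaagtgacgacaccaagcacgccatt
Rpsa (chr8:128728869-128728898, plus strand): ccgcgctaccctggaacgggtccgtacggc
Rpl14 (chr8:129163610-129163639, plus strand): ggCCCTCTCCCTTCTCgctgagcgccgcca

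In Rplp0, Rpl19 and Rpl14 the run covers the annotated start itself. In Rps6 the run lies before it. In Rpl4 the run crosses the annotated start but stops too soon after it to form the motif there, and in Rpl3 the run begins at the start with T rather than C. The windows of Rpl41 and Rpsa hold no such run. Promoter sequences were found for 66 of the 82 members. A C followed by 4 letters that are each C or T stood exactly at the annotated start in 22 of these 66 (33.3%), against 2.63% of all 27457 promoters. Within 10 bases of the start, on the gene's strand, it stood in 47 (71.2%), against 28.8% of all promoters.

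Other motifs were searched on both strands of the 300 bases around the start, 250 before it and 50 after it. CTTCCG, the core of many ETS factor sites, was present in 53% of member promoters and 17.4% of all promoters. TATAAA, the TATA box core, was present in 12.1% and 14.3%. A match is a description of these letters and the annotated start may lie some bases from the start used in these cells.

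Ribosomal protein genes took about 5% of the reads of a cell. Their share was 4.94% ± 1.25 (SD, n = 34 cells), with the lowest value in C14 (2.46%), a median of 5.0% and the highest in C39 (8.52%). In the passing cells it was 5.03% ± 0.783 (SD, n = 22), from 3.89% in C17 to 7.22% in C40. The bulk library held 1454 such reads, or 3.09% (exact Clopper-Pearson 95% interval 2.93% to 3.25%, for counting error only).

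All 22 passing cells lay above the bulk value, and of the 34 cells 31 did, while C14, C47 and C03 lay below it. Neither C14, C47 nor C03 was a passing cell. No molecular identifiers are named in the labels, so copies made by amplification count as separate reads and intervals here are too narrow. Over the passing cells the share had a Spearman rho of -0.03 with total reads, -0.34 with the number of genes with a read and -0.36 with the share of reads in Rn45s, the ribosomal RNA precursor. The summed level cannot tell fewer transcripts in each cell from fewer cells with them in the bulk library: fewer cells of a type and less RNA per cell cannot be told apart there.

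**Figure D1:**
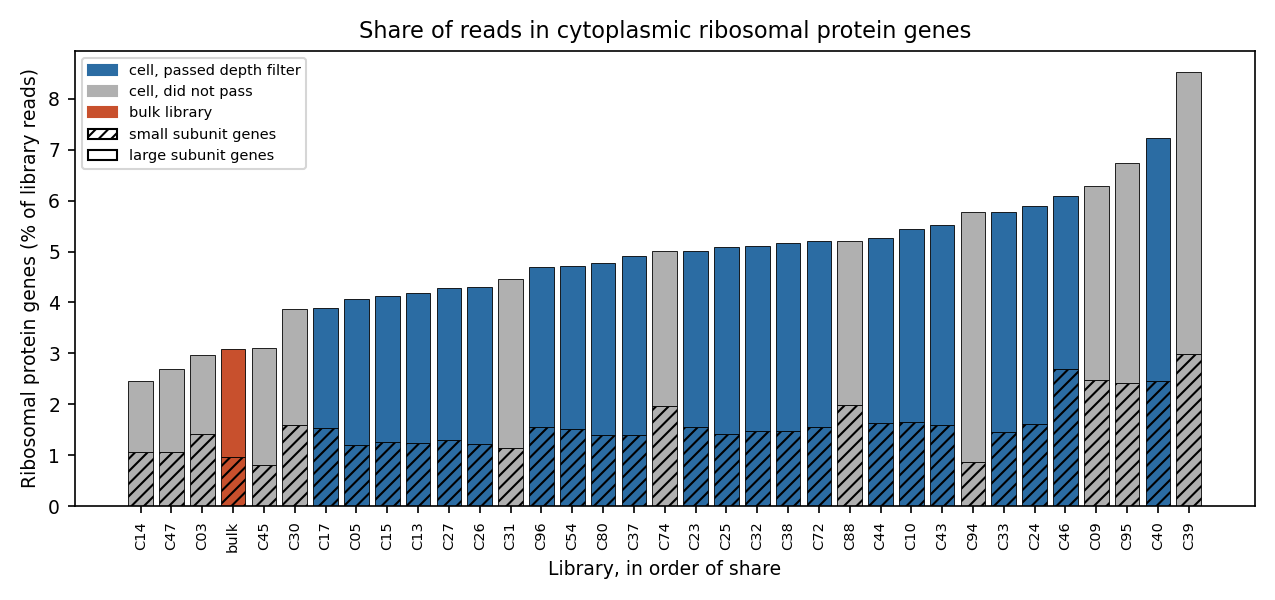
Share of library reads in the 82 ribosomal protein genes for each of the 34 cells and the bulk library, in order of share. Hatched parts are the small subunit genes, plain parts the large subunit genes, and the bulk library (3.09%) stands below all but 3 cells.

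The members were found in nearly all cells. Of the 82, 78 (95.1%) were detected in at least 17 cells, against 27.3% of the 10693 genes with a read in any cell. Detection in at least 30 cells held for 67 members and detection in all 34 for 12. The 4 members found in fewer than 17 cells were Rps12l4 (2 cells), Rpl27l2 (3), Rpl3l (5) and Rpl39l1 (10), and all of them are copies of another member.

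The member with most reads was Rplp0 in 18 of the 34 cells, Rps6 in 7 and Rpl3 in 4. The bulk library was also led by Rplp0. Transcript lengths were not given with the reference, and a long messenger RNA yields more reads, so levels below compare libraries for 1 gene and are not a ranking of transcript numbers between genes.

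Rplp0, the scaffold of the stalk, held 104 CPM in the lowest cell (C31), 4802 CPM at the median and 12448 CPM in the highest cell (C33). Its level in bulk was 2992 CPM, which 27 of 34 cells exceeded. Within the passing cells it ranged from 1953 CPM in C96 to 12448 CPM, with a coefficient of variation (CV, the SD over the mean) of 0.454. The stalk is completed by Rplp1 and Rplp2, acidic proteins that bind Rplp0.

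Rplp1 had a median of 855 CPM, with 0 CPM in C88 and 5884 CPM in C94, and 743 CPM in bulk. Rplp2 had a median of 176 CPM, with 0 CPM in C88 and C94 and 1917 CPM in C39, and 84.9 CPM in bulk (4 reads). C88 and C94 were the shallowest cells, where 1 read was worth 78.4 and 159 CPM.

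Rps6, the small subunit protein phosphorylated by S6 kinases, ranged from 167 CPM in C31 through a median of 3853 CPM to 8593 CPM in C95. Bulk held 2632 CPM. In the passing cells the lowest value was that of C17 (923 CPM), while the mean was 3886 ± 1121 CPM (SD, n = 22). C17 is one of the cells with Col1a2 reads.

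Rpl3, which lies near the catalytic centre of the large subunit, took 8.64% of ribosomal protein reads on average in the passing cells and 2.63% in the 12 others. The lowest level was 0 CPM (C88), the median 3399 CPM and the highest 5824 CPM (C96), with 2292 CPM in bulk. Total reads and genes with a read define the 2 sets of cells, and their part in this difference was not tested.

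Rpl41, a very short protein that lies between the subunits, differed from Rpl3 in this respect. Its share of ribosomal protein reads was 1.81% in the passing cells and 6.0% in the others, or 3.46% without C88 (14.3%) and C94 (23.1%). It was lowest in C03 (271 CPM), had a median of 923 CPM and was highest in C94 (13359 CPM), which alone held 23.4% of the signal over cells. Bulk held 552 CPM, and 31 cells lay above it.

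Also among the 8 members with the highest means were Rpl19 and Rpl4, of the large subunit, and Rpsa, of the small subunit. Rpl19 had a median of 1791 CPM against 1655 CPM in bulk, and Rpl4, whose protein lines the exit tunnel, 1568 CPM against 1082 CPM. Both were highest in cells outside the passing set, Rpl19 in C39 and Rpl4 in C74.

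Rpsa, a small subunit protein also known as a laminin receptor, was absent from C31, C88 and C94, had a median of 1275 CPM and reached 6605 CPM in C39. Bulk held 806 CPM, below 27 of the cells. Its highest passing cell was C46, with 5013 CPM, where it was the leading member. The lowest means belonged to Rpl27l2 (2.21 CPM), Rps12l4 (9.71), Rpl3l (13.7) and Rpl35a (28.5), and of these only Rpl35a, a large subunit protein, was detected in over 17 cells (26).

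Rpl5 and Rpl11 form, with the 5S RNA, a particle of the large subunit that can also bind the p53 regulator Mdm2. Rpl5 ranged from 0 CPM in C94 through a median of 1017 CPM to 2181 CPM in C46, and 32 cells exceeded its 212 CPM in bulk. Rpl11 was at 0 CPM in C03, C14 and C88, had a median of 409 CPM and reached 7793 CPM in C94. Without C94 its mean was 369 CPM instead of 587 CPM, against 169.8 CPM in bulk (8 reads).

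**Figure D2:**
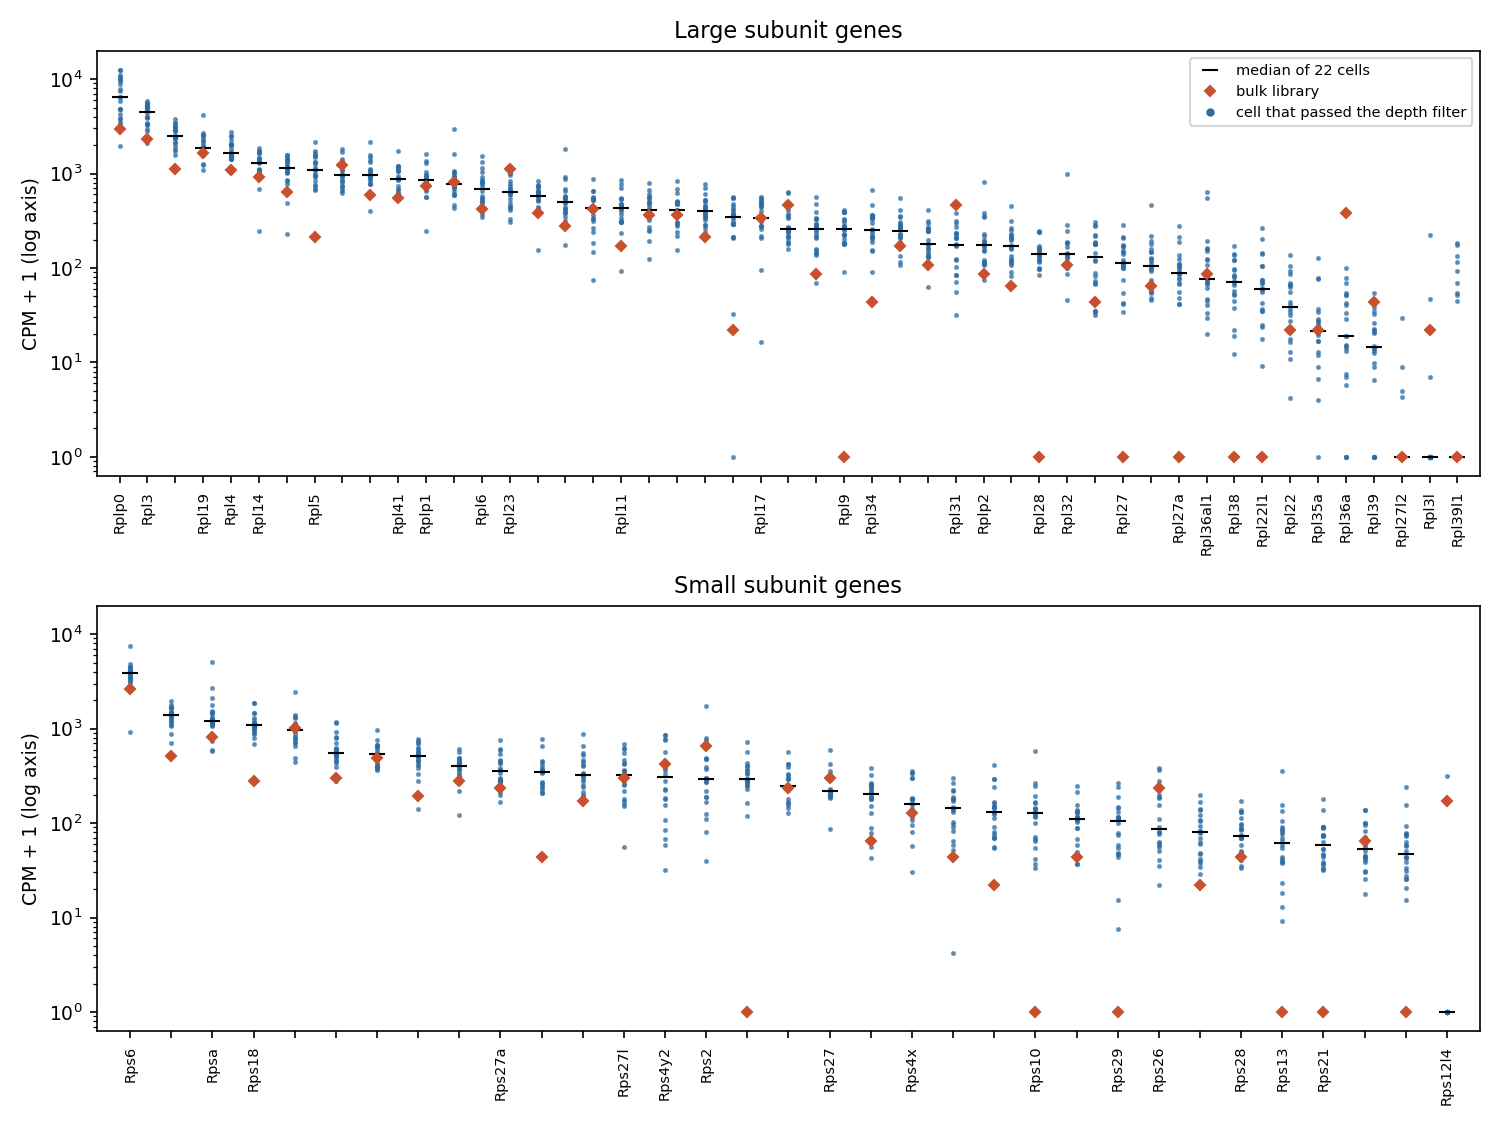
Level of each member (CPM + 1, log axis) in the 22 passing cells (points), their median (black bars) and the bulk library (diamonds), with large subunit genes above and small subunit genes below, each in order of the median, with the genes the text names labelled. Diamonds on the axis at 1 are the 14 members with 0 reads in bulk.

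Most members stood higher in the mean of the cells than in the bulk library. The log2 ratio of cells to bulk, with 1 CPM added to both, was above 0 for 67 members and below 0 for 15, with a median of 0.96. By more than 2-fold, 39 members (47.6%) were higher in the cells, against 53.4% of the 9023 genes whose 2 levels averaged at least 1 CPM. More than 2-fold lower were 3 members (3.66%), against 21.9% of those genes. The share of members that were higher is thus near the background, in which 47.5% of the genes had no read in bulk, against 17.1% of the members.

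Among genes whose 2 levels averaged at least 50 CPM, the picture differed. Of the 70 such members, 30 (42.9%) were more than 2-fold higher in the cells, against 22.3% of 3441 genes, and 3 (4.29%) were more than 2-fold lower, against 30.7%. The median log2 ratio was 0.88 for these members and -0.22 for these genes. Setting genes without a bulk read to 3 reads in bulk gave medians of 0.69 for all members and -1.30 for all genes. The small subunit members had a median log2 ratio of 1.19 and the large subunit members 0.87. Scaling by DESeq2 size factors moved the medians to 1.64 for members and 1.85 for all genes. With these factors 59 of the 82 members were more than 2-fold higher and 2 of the 82 lower, against 60.3% and 14.4% of all genes. The count of members more than 2-fold lower was 5 of 82 without the cells with Col1a2 reads, against 22.6% of all genes. It was 7 of 80 when the median cell replaced the mean, against 68.8% of all genes.

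**Figure D3:**
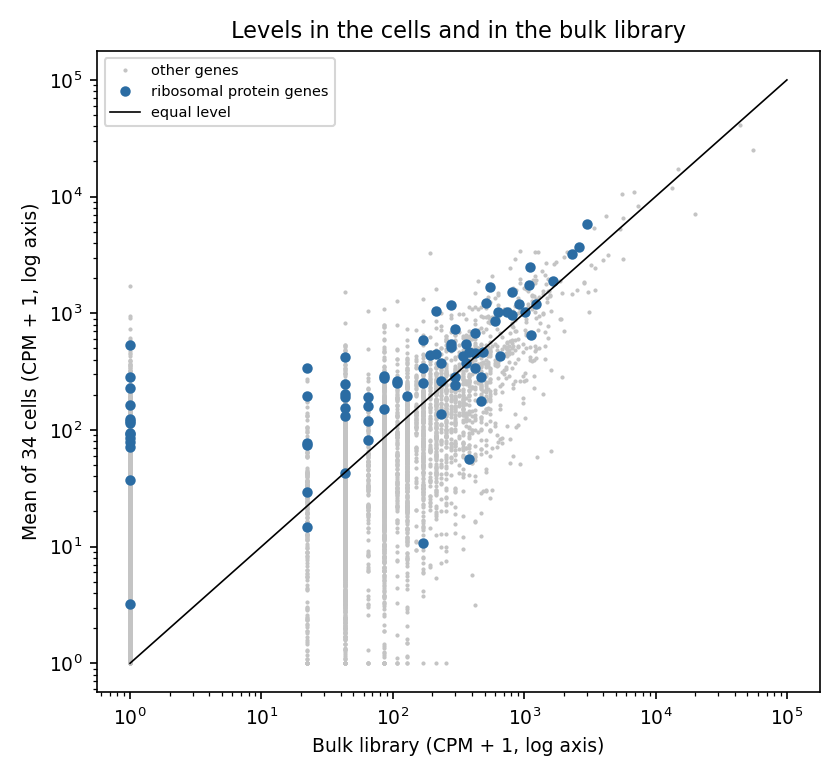
Mean of the 34 cells against the bulk library (CPM + 1, log axes) for all genes (grey) and the ribosomal protein genes (blue), with the line of equal level. Of the members, 67 lie above the line and 15 below it, and 14 stand at the left edge with 0 reads in bulk.

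There were 14 members with 0 reads in bulk, among them Rpl27a, Rpl9, Rpl28, Rps29, Rps10, Rpl27, Rps21, Rpl38, Rpl22l1 and Rps13. They were 17.1% of the members, against 47.5% of the genes whose 2 levels averaged at least 1 CPM. Among genes that averaged at least 50 CPM the share was 7.41%, and the share of members at that level is not given here. If bulk had held them at the mean level of the cells, they would have had 95.1 reads together, at the median level 64.7 and at the mean of the passing cells 75.3. A count of 0 in bulk was taken to allow up to 3 reads, or 63.7 CPM, an upper 95% limit for counting error only. Under the wider 95% Poisson interval used for other bulk counts, the least folds given below would be lower. With all cells they would be 2.90 for Rpl9, 3.63 for Rpl27a, 2.09 for Rpl28 and 1.59 for Rps29.

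Rpl9, of the large subunit, was read in 30 cells and not in C03, C47, C88 and C94. It had a median of 224 CPM, a highest value of 513 CPM in C30 and at least 89.3 CPM in every passing cell, and its mean was at least 3.57-fold higher than bulk. Over the passing cells alone it was at least 4.11-fold higher, so the shallow cells did not raise it.

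Rpl27a had a median of 92.3 CPM, but 6039 CPM in C88 held 62.6% of its signal. Its fold over the bulk floor was at least 4.46 with all cells and at least 1.62 in the passing cells. Rpl28, with a median of 138 CPM and a highest value of 753 CPM in C09, was at least 2.57-fold higher than bulk. Rps29, with a median of 113 CPM and a highest value of 392 CPM in C88, was at least 1.95-fold higher. Of these, Rpl28 also had 0 reads in the passing cell C17.

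Depth alone was matched by drawing 47121 reads, the bulk total, from each of the 30 cells that had as many. At that depth the passing cells held reads of 73 to 79 members, with a median of 76, and the bulk library held 68. Of the 30 cells, 27 had more members than bulk and 3 had fewer. The matching count over all genes at that depth is not given here, so these counts do not set the members apart from other genes. Reads that fit several near-identical copies of these genes were handled in a way that is not stated in the labels, and its part in the bulk counts of 0 was not tested.

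The members that were higher in bulk were few. Rpl36a had 18 reads in bulk (382 CPM), a median of 22.9 CPM in the cells and a highest value of 549.8 CPM in C30, and C30 was the single cell above bulk. The bulk level was 6.85 times the mean of the cells (95% Poisson interval of the bulk reads 4.06 to 10.8). Rpl31, at the rim of the exit tunnel, had 22 reads in bulk (467 CPM), a median of 172 CPM and a highest value of 551 CPM in C74, and bulk was 2.68 times the mean (1.68 to 4.06). Thus 2 cells lay above bulk for Rpl31.

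Rpl23 had 1125 CPM in bulk and a median of 598 CPM in the cells, from 50.6 CPM in C03 to 1908 CPM in C94, with 3 cells above bulk. Rps26 had 233 CPM in bulk (11 reads) and a median of 84.7 CPM, from 0 CPM in C88 and C94 to 384 CPM in C17, with 6 cells above bulk. For Rpl23 the bulk level was 1.74 times the mean of the cells (1.30 to 2.27) and for Rps26 1.71 times (0.854 to 3.06), so the interval for Rps26 includes equal levels. Rps12l4 had 8 reads in bulk (169.8 CPM) but only 31 reads in 2 cells, 30 of them in C46.

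Small subunit genes held a smaller sum of reads than large subunit genes in all 34 cells. The log2 ratio of the summed CPM, small over large, was -1.08 ± 0.448 (SD, n = 34), from -2.49 in C94 through a median of -1.19 to -0.13 in C03. Bulk was at -1.13, within the cells. The sums are not corrected for length, so the ratio compares libraries and not numbers of proteins.

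The 20 passing cells without a Col1a2 read lay close together, at -1.24 ± 0.140 (SD, n = 20), from -1.57 in C33 to -0.96 in C40. The 4 cells with Col1a2 reads lay above that range, with C46 at -0.32, C14 at -0.38, C30 at -0.51 and C17 at -0.63. So did 7 of the 10 cells that were neither passing cells nor held Col1a2 reads, with C03 the highest at -0.13. The position is therefore shared by cells with and without Col1a2 reads. The log2 ratio without Rplp0 and Rpl3, the leading large subunit genes, was -0.66 ± 0.124 in those 20 cells (from -0.91 to -0.45), and C46 (0.04), C14 (-0.21), C17 (-0.23) and C30 (-0.40) lay above, as did 5 of the 10 other cells (C03, C47, C74, C88 and C95). Bulk, with 40 Col1a2 reads, was at -0.72 on that measure. By the median CPM of the members of each subunit, C30 (-0.22) and C46 (0.22) lay within the range of the 20 cells (-0.82 to 0.27), while C17 (0.39) and C14 (1.0) lay above it.

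The order of the 82 genes was nearly the same in most passing cells. The Spearman rho over genes, as a median against the other passing cells, lay between 0.890 (C43) and 0.929 (C33) in the 20 passing cells without Col1a2. It was 0.665 in C17, 0.673 in C46 and 0.770 in bulk. Genes are not independent replicates, and rho is a description of how alike 2 libraries are.

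C17 and C46 were also the shallowest passing cells, with 65038 and 95359 reads. With these cells drawn down to 47121 reads, the 20 cells ranged from 0.855 to 0.904, while C17 was at 0.688, C46 at 0.635 and bulk at 0.761. C17 and C46 thus also lay below that range at equal total reads. Genes with a read were not matched. They numbered 3752 in C17 and 4028 in C46, against a mean of 4666 in the 20 cells, from 3307 (C54) to 5514 (C05). All 10 cells that were neither passing nor held Col1a2 reads lay below the undrawn range of the 20 cells too, from 0.196 (C88) to 0.847 (C95). The list of 6 fibroblast genes summed to 338 CPM in C17, 252 CPM in C46, 3083 CPM in C14 and 2969 CPM in C30. Without a Col1a2 read, C03 held 1403 CPM (305 reads) and C09 408 CPM (26 reads) of the list. In C17 20 of the 22 reads of the list and in C46 all 24 were of Col1a2. The sum was 1677 CPM in bulk and at most 12.3 CPM in the 20 cells, and Lum was at 0 in every library. The part of another cell type in these profiles was not tested.

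Members raised in both C17 and C46 came from both subunits, while members lowered in both came from the large subunit alone. The share of ribosomal protein reads lay above the whole range of the 20 other passing cells in both C17 and C46 for 20 members, 13 of them small subunit genes, and below it for 8 members, all from the large subunit. At 47121 reads per cell these counts were 14 and 8. With the highest and lowest of 20 cells as limits, no test attaches to these counts, and the limits were read after the cells had been seen to differ. The same share over other genes is not given here, so the counts do not set the members apart from other genes. Some of the 20 members rested on few reads in C17, such as 3 reads of Rpl3l and 5 of Rpl35a.

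Rpsa was at 6.84% of ribosomal protein reads in C17 and 8.24% in C46, against 1.11% to 4.08% in the 20 cells, and at 5.81% in C14, 3.69% in C30 and 2.61% in bulk. Above the range for Rpsa lay also C09, C39, C45 and C47, without Col1a2 reads, up to 8.41% in C47. Rps2, which lies at the entry of the messenger RNA channel, was at 2.06% in C17 and 2.83% in C46, against 0.0900% to 1.17%, and at 0.683% in C14, 1.33% in C30 and 2.13% in bulk. C03, C09, C45 and C47 lay above the range for Rps2 as well, up to 3.06% in C03. Rpl3 was at 5.37% in C17 and 4.60% in C46, against 6.07% to 12.4%. Rpl14 was at 0.632% in C17 and 1.12% in C46, against 1.44% to 3.68%, and at 0.456% in C14 and 0.0947% in C30. Rpl3 was at 3.08% in C14 and 2.65% in C30. Of the 10 cells that were neither passing nor held Col1a2 reads, 9 lay below the range for Rpl3 and 4 below that for Rpl14, so low shares of both were not limited to the cells with Col1a2 reads.

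**Figure D4:**
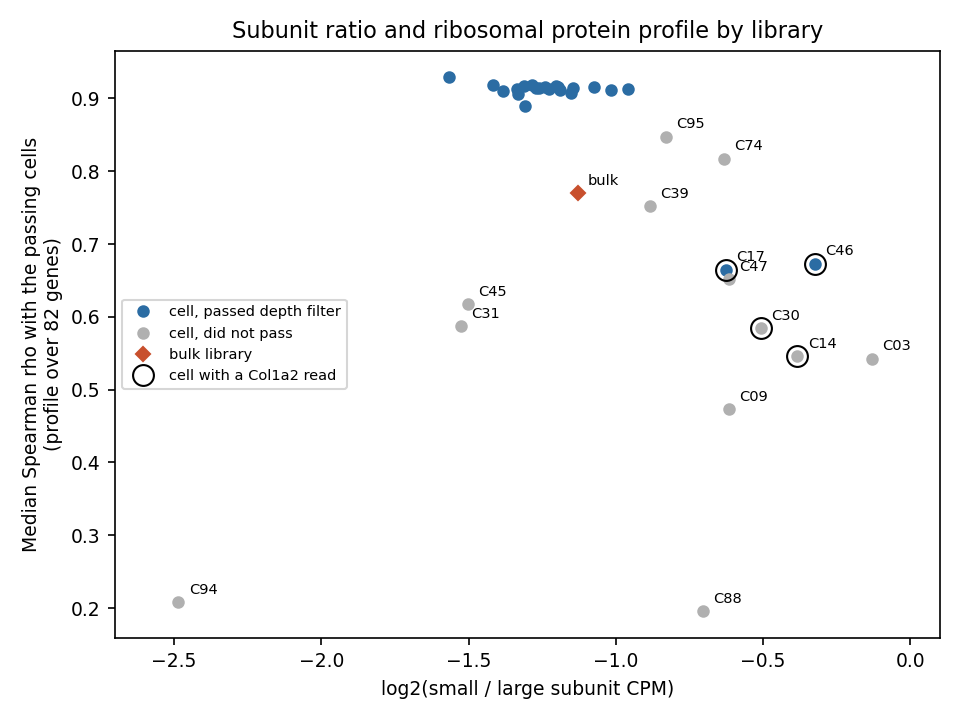
Each library by its log2 ratio of summed small over large subunit CPM (x axis) and its median Spearman rho, over the 82 genes, with the passing cells (y axis). The 20 passing cells without Col1a2 form a group above 0.88, while the ringed cells with Col1a2 reads lie to the lower right among several cells that did not pass (C03, C09, C47), and the bulk library is at 0.770.

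The CVs of ribosomal protein genes were lower at the median than those of other genes of like level. The median CV over 34 cells was 0.824 for the 76 members with a mean of at least 50 CPM and 1.65 for 3230 other genes above the same limit. In the passing cells the medians were 0.435 and 1.12. By level in the passing cells, the medians were 0.555 against 1.28 between 50 and 200 CPM (25 members), 0.401 against 0.783 between 200 and 1000 CPM (34 members) and 0.308 against 0.549 from 1000 CPM (15 members).

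Among the members with the lowest CV over all 34 cells were Rps18 (0.459), which lies in the head of the small subunit, Rps27a (0.469), made as a fusion with ubiquitin, and Rpl5 (0.481). Rps18 had a median of 1065 CPM, with 0 CPM in C94 and 2480 CPM in C09, and 276 CPM in bulk. In the passing cells alone, Rpl4 (0.216) and Rpl3 (0.247) were among the lowest.

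The highest CVs over 34 cells belonged to Rpl27a (3.59), Rps28 (2.64), Rpl11 (2.20) and Rpl36al1 (2.12). In each, 1 cell held a large part of the signal. C88 held 62.6% of the Rpl27a signal and 46.1% of the Rps28 signal, C94 held 39% of the Rpl11 signal and C09 held 34.7% of the Rpl36al1 signal. Rps28 had a median of 87.0 CPM and 3137 CPM in C88. In the passing cells the CVs of these genes were 0.555, 0.448, 0.391 and 1.18, so Rpl36al1 was the only one that stayed high there.

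C88 and C94 were the highest cells for 24 of the 82 members, and for 66 members the highest cell was outside the passing set. Among the passing cells, C40 was the highest for 28 members and C46 for 25. The matching shares over all genes are not given here, so these counts do not set the members apart from other genes. Rpl32, with a median of 138 CPM in the passing cells, had 996 CPM in C46, and Rps2, with a median of 292 CPM, had 1719.8 CPM there. Rpl36al1 had 629 CPM in C46 against a median of 76.1 CPM.

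**Figure D5:**
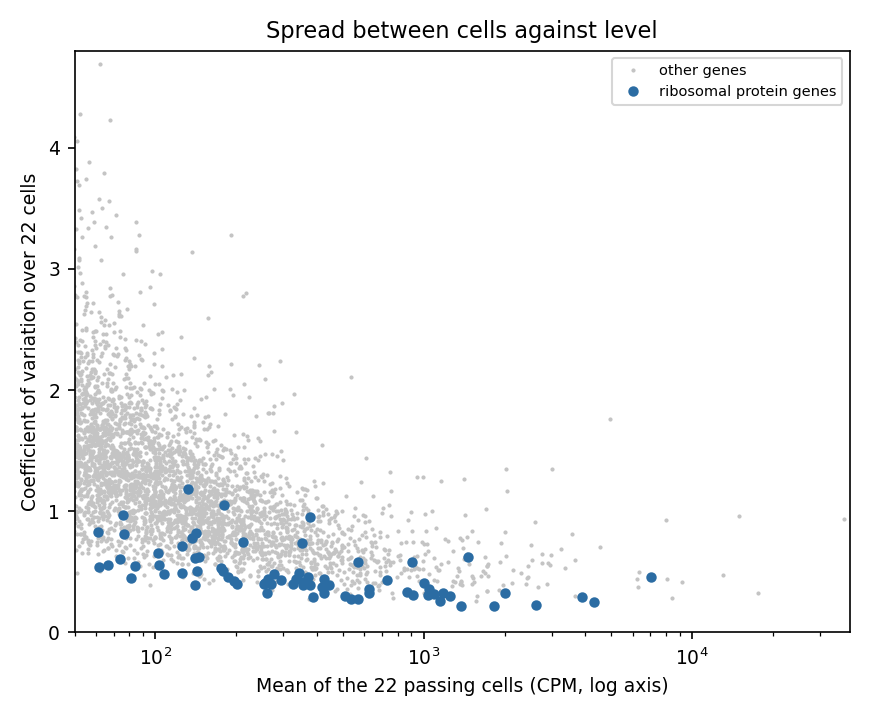
Coefficient of variation over the 22 passing cells against the mean of those cells (CPM, log axis) for genes that average at least 50 CPM. Ribosomal protein genes (blue) lie mostly below other genes (grey) at the same level. The medians were 0.555 against 1.28 between 50 and 200 CPM, 0.401 against 0.783 between 200 and 1000 CPM and 0.308 against 0.549 from 1000 CPM.

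Members covaried weakly from cell to cell. Over the passing cells the median Spearman rho of the 2850 pairs of members was 0.11, against 0.00 for pairs of a member with another gene and 0.02 for pairs of other genes. A rho above 0 was found in 65.4% of member pairs and in 50.6% of pairs with another gene. Over all 34 cells the medians were 0.15, 0.07 and 0.18, so pairs of other genes then had the higher value. All pairs share the library totals, and weak correlations of sparse counts are given only as a description.

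Against the sum of the other members, the median rho of 76 members in the passing cells was 0.24. The matching median of other genes with that sum is not given here. Rplp1 had the highest (0.73), followed by Rpl6 (0.59), Rpl32 (0.58), Rpl34 (0.53) and Rpl22 (0.53). Rpl36al1 had the lowest (-0.08), beside Rpl17 (-0.07) and Rpl31 (-0.06). Members with a TOP motif at the annotated start had a median rho of 0.21 and a median CV of 0.422 (20 genes), and those without 0.25 and 0.441 (40 genes), so the medians were close.

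The other genes whose level followed the summed ribosomal protein CPM most closely over the passing cells were Polr2j (rho 0.75), a subunit of RNA polymerase II, Sec61b (0.73), part of the channel into the endoplasmic reticulum, and Tomm7 (0.69), of the mitochondrial import pore. Commd3 (0.66), Parl (0.62), 1 record without a symbol (0.61), Cox6a1 (0.59), Ndufs7 (0.59), Ptk2 (0.59) and Agfg1 (0.58) completed the top 10. Over all 34 cells, Polr2j was at 0.43 and Sec61b at 0.46. These are the extremes of 3230 genes over 22 cells that share their library totals.

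Genes that act with the ribosomal proteins were widely detected. Fau, which carries a ribosomal protein behind a ubiquitin-like domain, was detected in 29 cells, and Rack1, a scaffold on the small subunit, in 32. Fau had a mean of 273 ± 94.5 CPM and Rack1 1913 ± 675 CPM (SD, n = 22 passing cells). The rho with the summed level of the members over the passing cells was 0.40 for Fau and -0.13 for Rack1.

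Of the 15 other TOP messenger RNAs, each reached 17 cells, and the elongation factor gene Eef1a1 led with 8415 ± 2416 CPM (SD, n = 22), against 7343 CPM in bulk. Their summed level had a rho of 0.02 with that of the members over the passing cells and 0.42 over all 34 cells. Eef1a1 itself had a rho of -0.19 and Eef1b2 of 0.17 over the passing cells.

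Of 23 ribosome biogenesis genes with a row, 17 were detected in at least 17 cells. Ncl and Npm1, abundant nucleolar proteins, stood at 1718 ± 945 and 2312 ± 1139 CPM (SD, n = 22), and the polymerase I subunit gene Polr1b was detected in 11 cells. The summed level had a rho of 0.23 with that of the members over the passing cells and 0.01 over all cells. Of 6 chaperones dedicated to ribosomal proteins, 3 (Grwd1, Aamp and Bccip) were detected in at least 17 cells. The sum of the chaperones had a rho of -0.07 over the passing cells and 0.14 over all cells, so its sign changed.

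Of 12 genes of mTORC1, its inputs and MYC, 3 reached 17 cells, a share near the 27.3% of all genes with a read in any cell. The 3 were Rheb, the GTPase that activates mTORC1, Eif4ebp1, a repressor of cap-dependent translation, and Mycn. Mtor itself was detected in 11 cells and Myc in 11. The sum of the list had a rho of -0.37 with that of the members over the passing cells and -0.17 over all cells. Of 6 p53 targets, Mdm2, Ccng1 and Sesn2 reached 17 cells. The sum of the targets had a rho of 0.53 over the passing cells (0.54 without C17 and C46) and 0.35 over all cells. Of 67 mitochondrial ribosomal protein genes, 59 reached 17 cells. The sum of these genes had a rho of 0.50 over the passing cells (0.58 without C17 and C46) and 0.35 over all cells.

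For cell state lists the values over the passing cells lay between -0.19 and 0.27. The rho of the members' sum was -0.08 with core hypoblast genes, 0.12 with parietal endoderm genes, 0.08 with visceral endoderm genes, 0.07 with S phase genes and -0.19 with G2/M genes. It was 0.12 with pluripotency, 0.04 with fibroblast and 0.27 with trophoblast genes, lists of which no gene reached 17 cells. Each is 1 value over 22 cells of 1 sample.

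Several members have paralogs that replace them in some ribosomes, and both were read in the same cells. Rps4y2 and Rps4x encode versions of the same small subunit protein. Rps4y2 had a median of 305 CPM and Rps4x 158 CPM in the passing cells, with Rps4y2 higher in 18 of the 22, and bulk held 424 and 127 CPM. Rps27l, a p53-responsive copy of Rps27, had 320 against 219 CPM and was higher in 16 of the 22, while both had 14 reads in bulk.

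Rpl36al1 exceeded Rpl36a in 19 of the 22 passing cells, although bulk held 4 reads of Rpl36al1 and 18 of Rpl36a. Rpl22l1 had a median of 59.0 CPM against 37.7 CPM for Rpl22 and was higher in 13, and bulk held 0 reads of Rpl22l1 and 1 of Rpl22. Levels of the copies are not corrected for length, and reads of near-identical sequences may have been split between them. Across the passing cells the rho between copies was 0.10 for Rps4y2 and Rps4x, -0.15 for Rps27l and Rps27, and 0.02 for Rpl22l1 and Rpl22.

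Rpl39l1, by its symbol a copy of Rpl39, was detected in 10 cells, 9 of them passing, and exceeded Rpl39 in all 10. Its highest value was 322 CPM in C95, and bulk held 0 reads. Rpl3l, the striated muscle form of Rpl3, had 32 reads spread over 5 cells, of which 21 were in C46 and 3 each in C14, C17 and C30. The fifth cell, C25, held 2 reads, so all 4 cells with Col1a2 reads also held reads of Rpl3l.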

How the data were processed

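RNA was measured in 34 single cells and 1 bulk library. The authors deposited raw read counts, whole numbers for each RefSeq transcript record, as 1 table. The submitters' processing notes name TopHat2 and the build rn5. What counter and annotation were used, and how reads with several matches were handled, is not given in the sources used here. Of 17201 records, 16209 were matched to a RefSeq symbol, and the unmatched records held 4.14% of the reads and stayed in the totals.

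CPM are counts divided by the library total, and totals ranged from 6288 to 503044 reads. A read was worth 21.2 CPM in bulk. Cells were weighted equally, no cell was removed from the main values, and no doublet caller was run. Each kind of library is 1 sample, so no test was made and no p-value is given. Thinning drew 47121 reads without replacement from each deeper cell. Alternatives used edgeR 4.0.16 (TMM) and DESeq2 1.42.0 (size factors) on the counts, in R 4.3.3, and other steps used Python 3.11.15, pandas 2.3.3 and scipy 1.17.1. The scripts were tested on simulated data.

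The members and lists were chosen with earlier results of these data known. Named genes were the 8 members with the highest and the 4 with the lowest mean, those detected in fewer than 17 cells, and the 5 largest and 5 smallest ratios of cells to bulk. Also named were the 4 lowest and 4 highest CVs among members of at least 50 CPM, paralog pairs, stalk proteins, Rpsa, Rps6, Rpl5 and Rpl11, and the 10 other genes nearest to the summed level. Some items that these rules name are not reported here. Means per length were planned for the first rule, but no lengths were given, so CPM was used. Rpl14, Rps2 and Rpl32 within the Col1a2 comparison, the lowest CVs in the passing cells, the members with the highest and lowest rho, single genes of the lists, and the pairs of Rpl36al1 and Rpl39l1 were chosen after their values were seen. Thinning of the profile, the ratio without Rplp0 and Rpl3, and the values without C88 and C94 or without the cells with Col1a2 reads were added after seeing the data, as were the values of the 10 other cells set beside the Col1a2 comparison.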

Additional observations from a re-analysis of the deposited data

How the results depend on the processing

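Of 67 values under other settings, 55 stayed within the spread between cells or within 1.5 times the main value, and 12 moved further. For the bulk share the limit came from its counting interval instead. The log2 ratios and rho values kept their sign, which shares, counts and CVs cannot change. Using the record with the most reads could not alter a value, because no member had several records. The share of reads in bulk, 3.09%, was 3.27% with totals without Rn45s, 2.91% with TMM and 2.08% with DESeq2 size factors. With those factors, 59 of the 82 members instead of 39 were more than 2-fold higher in the cells, and 60.3% instead of 53.4% of all genes. The 3 of 82 members more than 2-fold lower became 7 of 80 with the median over cells and 5 of 82 without the cells with Col1a2 reads. The share of all genes that were lower, 21.9%, became 68.8% and 22.6%. The median rho of member pairs, 0.15, was 0.28 as Pearson's r of log2(CPM + 1). The log2 ratio of small over large subunit, -1.08, was -0.24 by median CPM, with 32 cells, and -0.63 without Rplp0 and Rpl3. The median CV, 0.824, was 0.435 in the passing cells and 0.366 in those without Col1a2, and the SD of log2(CPM + 1) was 2.18, a different measure. Levels per kilobase were not run. No paired analysis was possible because each kind of library is 1 sample without replicate numbers. Bulk depth limits members below 63.7 CPM there.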

Other observations

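The genes most opposed to the summed ribosomal protein level over the 22 passing cells were Bclaf1 (rho -0.76), which encodes a nuclear protein of RNA processing, Tubb6 (-0.68), a tubulin, and Sucla2 (-0.67), a subunit of a mitochondrial enzyme. Jun, an immediate early transcription factor, was at -0.63. Without C17 and C46 the values were -0.71, -0.83, -0.68 and -0.65, and over all 34 cells they were -0.60, -0.29, 0.02 and -0.50, so that of Sucla2 rests on the passing cells. These 4 were taken from the lowest of 3230 genes after their values were seen.

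Even numbers made up 50.8% of the nonzero counts of members in the passing cells on average, 58.2% in the 12 other cells and 58.8% in the bulk library.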
